A study of Mus musculus with 12 samples.

Results

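The platelet and megakaryocyte genes described here are 9 genes chosen by name, Pf4, Ppbp, Itga2b, Itgb3, Gp1ba, Gp5, Gp6, Gp9 and Treml1, and every probe set of the array that the platform annotation assigns to them. A probe set is a group of short oligonucleotides that together measure a transcript. Of the 9 genes, 8 had a probe set, among 18194 genes with a probe set that names a single gene, and these 8 genes had 9 of the 45101 probe sets on the array, since Itgb3 had 2. Gp1ba had no probe set in the annotation used here and was not analysed here. Whole blood RNA of 12 C57Bl/10 wild type mice aged 3 months was measured, 1 mouse per array, with no transgene or drug treatment given in the sources. Chronic hypoxia (CH) mice spent 2 weeks in a normobaric chamber in which oxygen was lowered step by step to 8%. It was raised in part after 8% was first reached and was back at 8% by the end. Recovery (REC) mice had the same 2 weeks of hypoxia and then 2 weeks at 21% oxygen. Normoxia (NX) mice breathed 21% oxygen throughout, and each group had 4 mice. The blood was drawn from the inferior vena cava under ketamine and xylazine anaesthesia in all 3 groups. The RNA of all blood cells was measured together.

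Platelets are cell fragments without a nucleus that circulate in blood and stop bleeding. They are shed by megakaryocytes, large cells of the bone marrow, and carry RNA that the megakaryocyte made, so that platelet transcripts in blood reflect a pool filled in the marrow. Of the genes studied, Pf4 and Ppbp encode chemokines stored in the alpha granules, Itga2b and Itgb3 encode the subunits of the fibrinogen receptor integrin αIIbβ3, Gp1ba, Gp5 and Gp9 encode subunits of the von Willebrand factor receptor GPIb-IX-V, Gp6 encodes the collagen receptor GPVI, and Treml1 encodes TLT-1, a receptor of the alpha granule membrane that is exposed on activation. Megakaryocyte genes are known to be driven by GATA and ETS family factors together with NF-E2.

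Positions are those of the mouse genome build GRCm38.p6. Ppbp (chr5:90768518-90770063) and Pf4 (chr5:90772435-90773383) are neighbours whose annotated ends are 2372 bases apart. Gp9 is at chr6:87776131-87779786, Gp6 at chr7:4362853-4397851, Gp1ba at chr11:70639102-70643986, Itga2b at chr11:102453297-102469883, Itgb3 at chr11:104608000-104670476, Gp5 at chr16:30307685-30310781 and Treml1 at chr17:48359916-48367176. The promoters of 4 of them are printed because the signals of Pf4 and Ppbp, and those of Gp5 and Treml1, differed in opposite directions between CH and REC in the signals as deposited. Each runs from 250 bases before to 50 bases after the RefSeq start site, in the direction of the gene, with matches on either strand in capitals. The motifs searched were AGATAA or TGATAA for GATA factors and AGGAAG or CGGAAG for ETS factors.
Pf4: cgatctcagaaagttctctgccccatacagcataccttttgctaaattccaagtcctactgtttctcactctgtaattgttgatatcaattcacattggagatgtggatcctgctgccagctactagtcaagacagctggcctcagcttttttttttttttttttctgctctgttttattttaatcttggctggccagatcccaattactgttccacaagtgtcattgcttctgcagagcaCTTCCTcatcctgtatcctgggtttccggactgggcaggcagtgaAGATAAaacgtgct
Ppbp: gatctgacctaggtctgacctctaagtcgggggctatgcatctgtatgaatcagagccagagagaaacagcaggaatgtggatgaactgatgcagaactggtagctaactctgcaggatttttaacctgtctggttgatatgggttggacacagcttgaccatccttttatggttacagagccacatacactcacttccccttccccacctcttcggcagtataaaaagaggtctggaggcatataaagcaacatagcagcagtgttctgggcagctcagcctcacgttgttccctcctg
Gp5: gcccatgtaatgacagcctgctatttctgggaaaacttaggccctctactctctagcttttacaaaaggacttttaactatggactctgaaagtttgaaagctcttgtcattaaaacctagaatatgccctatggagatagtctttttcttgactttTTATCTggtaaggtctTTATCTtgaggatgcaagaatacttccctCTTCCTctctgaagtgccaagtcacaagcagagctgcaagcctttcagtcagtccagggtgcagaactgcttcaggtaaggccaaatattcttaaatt
Treml1: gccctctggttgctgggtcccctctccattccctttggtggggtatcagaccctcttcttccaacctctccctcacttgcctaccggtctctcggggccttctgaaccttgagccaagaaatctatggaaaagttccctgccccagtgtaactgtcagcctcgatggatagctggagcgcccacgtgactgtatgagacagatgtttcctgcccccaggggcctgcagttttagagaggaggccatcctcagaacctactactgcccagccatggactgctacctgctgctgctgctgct
The windows are chr5:90772185-90772484 (Pf4, plus strand), chr5:90768268-90768567 (Ppbp, plus strand), chr16:30310732-30311031 (Gp5, minus strand) and chr17:48359666-48359965 (Treml1, plus strand). Counted from the start site, the Pf4 window had an ETS match at -9 and a GATA match at 37, and the Gp5 window had GATA matches at -93 and -77 and an ETS match at -48. The Ppbp and Treml1 windows held neither. Over the 8 genes with a window in the RefSeq table, which lists none for Itgb3, a GATA match was present in 4, against 18.6% of 32851 promoters of the same length, and an ETS match in 5, against 46.5%. Both were present in 3 of the 8, Pf4, Gp5 and Gp1ba, against 7.70%. The NF-E2 motif TGAGTCA was in 0 of the 8 windows, against 5.20%. The motifs do not overlap in these windows, and a match is only a description of the letters.

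The deposited values were signals on a linear scale with an equal trimmed mean on every array (150.0). The median signal of an array was 32.9 to 59.9 and 19.6% to 33.4% of its probe sets lay under 16. The actin signal near the 3′ end over that near the 5′ end, which grows as RNA degrades, was 2.00 ± 0.0941 in CH, 1.61 ± 0.0923 in REC and 1.71 ± 0.104 in NX (SD, n = 4 arrays each), and the hybridization controls, 18 probe sets for bacterial transcripts added in fixed amounts, had a mean log2 signal of 14.0 to 14.6 in CH, 11.6 to 12.2 in REC and 12.3 to 13.1 in NX. Red cell markers, 9 measured of 15, had a summed signal of 114605 to 184143 in CH, 4443 to 16154 in REC and 23845 to 35886 in NX, with 8 of the 9 called higher in CH than in NX. Of 10 endothelial markers, the cells a needle could add, Vwf, which platelets also carry and which is in the granule list below, had signals of 1197 to 2721 in CH, 1501 to 2921 in REC and 1535 to 3042 in NX. The other 9 together summed to 260 to 643 in CH, 208 to 274 in REC and 235 to 463 in NX. What these values contributed to the changes below was not tested.

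A probe set was called when it passed a Benjamini-Hochberg adjusted p of 0.05 over all 45101 probe sets in limma and changed by at least 2-fold on the log2(signal + 16) scale, which understates the change of dim probe sets. In bulk blood RNA, fewer platelets and less RNA per platelet cannot be told apart. Of the 9 probe sets, 0 were called in CH against NX, where 22.0% of all probe sets were called (46.1% of the 17563 probe sets with a mean signal of at least 100 in some group). For REC against NX 0 of 9 were called, where the background was 4.36% (10.1% of the brighter probe sets). For CH against REC 2 of 9 were called, Treml1 and Gp5, both lower, where the background was 27.8% (51.5% of the brighter probe sets). With 9 probe sets these shares are too coarse to set the members apart from the background. After quantile normalization 2 of 9 were called in CH against NX, where 19.0% of all probe sets were, and 4 of 9 in CH against REC, where 24.9% were. With no fold threshold 4 of 9 passed in CH against REC, where 35.7% of all probe sets did. At an unadjusted limma p under 0.05, 1 of 9 passed in CH against NX, 0 in REC against NX and 5 in CH against REC. The share of all probe sets at that threshold was not computed. It was at least the 28.2%, 4.86% and 35.7% that passed the adjusted p. Those are lower bounds only, so these counts cannot be placed against the background. The adjusted p ran between 0.0966 and 0.976 in CH against NX and between 0.318 and 0.945 in REC against NX.

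**Figure D1:**
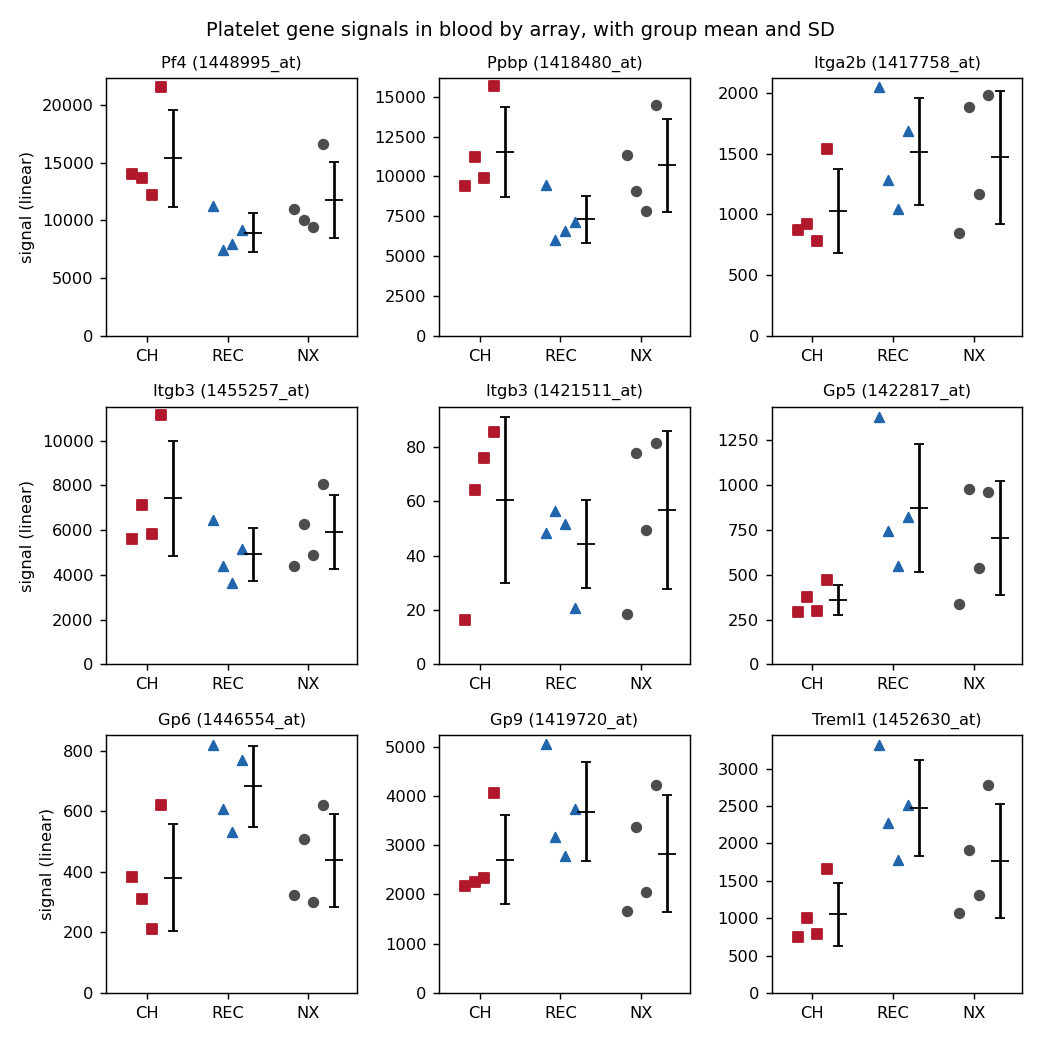
Signal of each platelet gene probe set on a linear axis that starts at 0, by group, with 1 point per array (CH squares, REC triangles, NX circles) and the group mean with its SD beside the points. CH 4 is the highest CH array in all 9 panels, and for Treml1 and Gp5 all 4 REC points lie above all 4 CH points.

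The chemokine genes had the brightest arrays in CH. Pf4, which encodes platelet factor 4, had signals of 14005, 13706, 12246 and 21579 in CH, 11285, 7414, 7978 and 9145 in REC, and 11001, 10054, 9424 and 16603 in NX. All 4 CH arrays lay above all 4 REC arrays, and NX overlapped with both. The mean was 15384 ± 4201 in CH, 8955 ± 1712 in REC and 11771 ± 3286 in NX (SD, n = 4 arrays each). Its log2 change was 0.39 (SE 0.27) in CH against NX, -0.38 (SE 0.27) in REC against NX and 0.76 (SE 0.27) in CH against REC, where limma's adjusted p was 0.0368 and the change was under 2-fold. The sign of the CH changes was turned by scaling, to -1.17 against NX (adjusted p = 0.000731) and -1.24 against REC after quantile normalization and to -1.22 and -1.66 when the arrays were scaled on their hybridization controls.

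Ppbp, which encodes the precursor of the neutrophil-attracting chemokine CXCL7, had signals of 9429, 11203, 9895 and 15654 in CH, 9453, 6043, 6612 and 7122 in REC, and 11320, 9115, 7843 and 14484 in NX. The CH and NX arrays overlapped widely, and REC 1 lay within the range of both. The log2 change was 0.12 in CH against NX with a 95% interval of -0.45 to 0.69, -0.53 in REC against NX with an interval of -1.10 to 0.038, and 0.65 in CH against REC (limma adjusted p = 0.0698). After quantile normalization the change was -1.31 in CH against NX and -1.18 in CH against REC, both called.

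Integrin αIIbβ3 was represented by its 2 subunit genes. Itga2b, the αIIb subunit that marks the megakaryocyte lineage, had signals of 869, 919, 784 and 1536 in CH, 2050, 1285, 1048 and 1682 in REC, and 851, 1882, 1165 and 1979 in NX. CH 1, CH 2 and CH 3 were under 1000 and CH 4 was not, and the groups overlapped in all 3 comparisons. Its log2 change of -0.48 in CH against NX had a 95% interval of -1.18 to 0.22, that of 0.082 in REC against NX an interval of -0.62 to 0.78, and that of -0.56 in CH against REC an interval of -1.26 to 0.14. Quantile normalization turned the REC value to -0.014.

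Itgb3, the β3 subunit, which also pairs with αv in other cell types, had signals of 5603, 7125, 5841 and 11135 in CH, 6472, 4403, 3661 and 5146 in REC, and 4421, 6281, 4909 and 8084 in NX for its bright probe set. The groups overlapped in each comparison, with CH 4 above all other arrays. The log2 change was 0.31 in CH against NX (95% interval -0.32 to 0.93), -0.26 in REC against NX (-0.88 to 0.37) and 0.57 in CH against REC (-0.057 to 1.19), and the CH values turned to -0.94 and -0.89 after quantile normalization. The other Itgb3 probe set, with signals of 16.4 to 85.4 over the 12 arrays, overlapped in every comparison and changed by 0.055, -0.21 and 0.27 in the same order.

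The von Willebrand factor receptor was represented by Gp5 and Gp9. Gp5, which encodes glycoprotein V, a thrombin substrate at the platelet surface, had signals of 289, 374, 295 and 468 in CH, 1378, 744, 548 and 822 in REC, and 335, 976, 537 and 958 in NX. Every CH array lay below every REC array, and NX 1 lay among the CH arrays. Gp5 was lower in CH than in REC, with a log2 change of -1.20 (SE 0.36, limma adjusted p = 0.0183), and the call was lost after quantile normalization (-0.81, adjusted p = 0.126) and without REC replicate 1 (-0.96, adjusted p = 0.0655). Against NX the CH change was -0.85 (95% interval -1.62 to -0.076, adjusted p = 0.0966), and without NX replicate 1 it was called at -1.15 (adjusted p = 0.0209). The REC change against NX was 0.35 (95% interval -0.42 to 1.13).

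Gp9, glycoprotein IX, which the receptor needs to reach the surface, had signals of 2175, 2249, 2325 and 4058 in CH, 5056, 3155, 2774 and 3729 in REC, and 1657, 3357, 2052 and 4227 in NX. CH 4 stood apart from the other CH arrays, which were close to each other. The log2 change was -0.016 in CH against NX (95% interval -0.72 to 0.69), 0.44 in REC against NX (-0.26 to 1.15) and -0.46 in CH against REC (-1.16 to 0.25), and none of the 3 was called. After quantile normalization Gp9 was called lower in CH than in REC at -1.27 (limma adjusted p = 0.00368) and read -0.64 in CH against NX. On the hybridization controls the changes were -1.63, 1.25 and -2.88, all called, where 77.5%, 16.4% and 93.9% of all probe sets were called.

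Gp6 encodes the collagen receptor that signals through the Fc receptor γ chain. It had signals of 382, 310, 210 and 622 in CH, 820, 609, 532 and 769 in REC, and 322, 507, 301 and 619 in NX. CH 1, CH 2 and CH 3 were below all REC arrays and CH 4 was not. The log2 change in CH against REC was -0.90 (SE 0.33, limma adjusted p = 0.0468, under 2-fold). In REC against NX the change was 0.66 (95% interval -0.042 to 1.37, adjusted p = 0.318), and in CH against NX -0.23, with 0.12 after quantile normalization.

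Treml1 had the smallest adjusted p of the 9 probe sets. Its signals were 742, 1000, 795 and 1662 in CH, 3312, 2274, 1782 and 2521 in REC, and 1066, 1913, 1317 and 2785 in NX. No CH array reached any REC array, and NX overlapped with both. The mean was 1050 ± 423 in CH, 2472 ± 639 in REC and 1770 ± 764 in NX (SD, n = 4 arrays each). Treml1 was lower in CH than in REC, with a log2 change of -1.26 (SE 0.34, limma adjusted p = 0.00989), and was called so in all 25 settings tried, with changes between -1.11 and -1.51 when single arrays were left out. Against NX the change was -0.72 in CH (95% interval -1.45 to 0.0036, adjusted p = 0.132) and 0.54 in REC (-0.19 to 1.27).

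**Figure D2:**
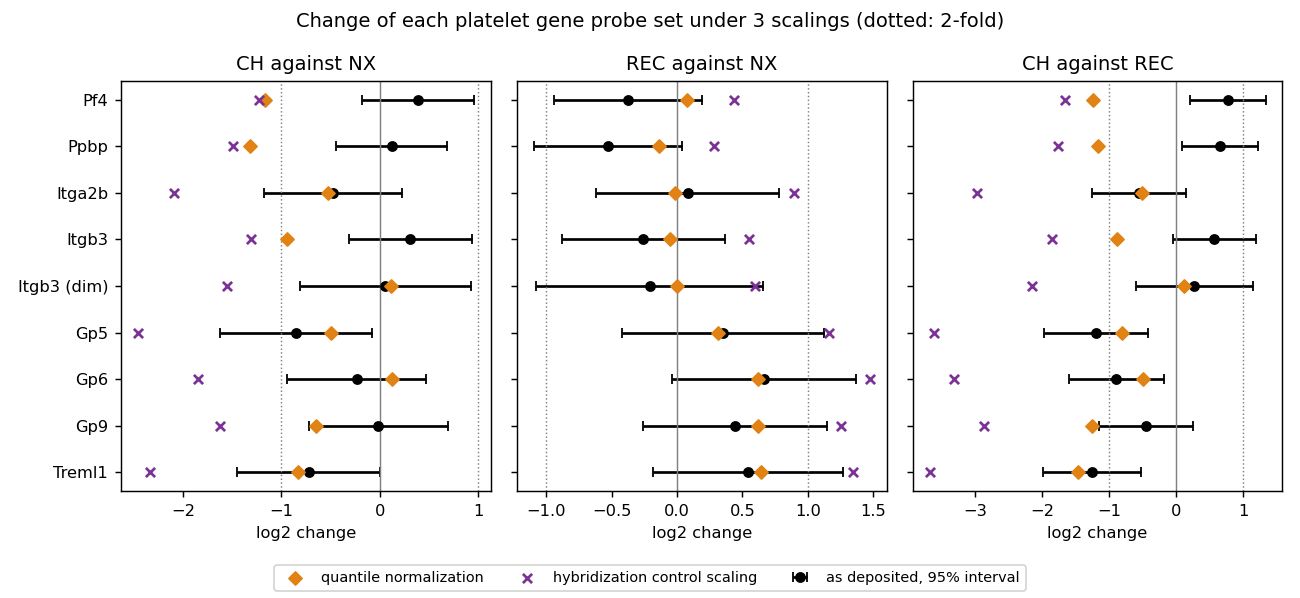
Log2 change of each platelet gene probe set in CH against NX, REC against NX and CH against REC, with limma's 95% interval for the signals as deposited (black), and the values after quantile normalization (orange diamonds) and after scaling on the hybridization controls (purple crosses). In CH against NX, Pf4 reads 0.39, -1.17 and -1.22 under the 3 scalings, while Treml1 reads below 0 under all of them.

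The 4 arrays of one group lay on one side of the 4 of the other for 0 of 9 probe sets in CH against NX (26.1% of all probe sets), 0 of 9 in REC against NX (20.3%) and 3 of 9 in CH against REC (32.4%), Pf4, Gp5 and Treml1. The median log2 change of the 9 was -0.016, 0.082 and -0.46 in these comparisons, beside 0.11, -0.10 and 0.25 over all probe sets. Of the 9, 8 were among the 17563 probe sets with a mean signal of at least 100 in some group. The median of those 8 was -0.12, 0.22 and -0.51, beside -0.50, -0.069 and -0.39 over the brighter probe sets. The median size of the change of the 9 without its sign was 0.31, 0.38 and 0.65, beside 0.54, 0.32 and 0.67 over all probe sets. Over the brighter probe sets it was 0.97, 0.49 and 1.12. Scaling on the hybridization controls moved the median of all probe sets to -1.50 in CH against NX and 0.71 in REC against NX, and the members' median to -1.63 and 0.89, close to that shift. Median centring moved the median of all probe sets to -0.046 and 0.054, and the members' median to -0.17 and 0.24. After quantile normalization the members' median was -0.64 in CH against NX and -0.89 in CH against REC, beside 0.063 and 0.072 over all probe sets.

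In the signals as deposited, platelet genes also moved relative to each other. The signal of each gene was set over that of Pf4 on the same array, and the log2 ratio was centred on its NX mean, a measure chosen after the values were seen and given with no test. Treml1 relative to Pf4 was -1.43, -0.97, -1.14 and -0.90 in CH, 1.02, 1.08, 0.63 and 0.93 in REC, and -0.57, 0.40, -0.043 and 0.21 in NX, with no overlap between any pair of groups. For Gp6 the ratio was -1.04 to -0.36 in CH, 0.86 to 1.18 in REC and -0.30 to 0.46 in NX, again without overlap. For Gp5 the mean ratio was -1.24 in CH and 0.73 in REC, for Itga2b -0.87 and 0.46, and for Gp9 -0.40 and 0.82, with CH below REC on every array in each case. The separation of CH from NX depended on the denominator. With Ppbp in place of Pf4, CH and NX overlapped for Treml1 (-0.84), Gp6 (-0.35), Gp5 (-0.97) and Itga2b (-0.60), and with Itgb3 in its place they overlapped for Gp6 (-0.54). CH and REC did not overlap for any of the 5 genes with either denominator. Ppbp and Itgb3 stayed nearer to Pf4, with means of -0.27 and -0.079 in CH and -0.15 and 0.12 in REC. A common factor per array leaves these ratios nearly unchanged, but quantile normalization, which reshapes the bright end of each array, turned the CH ratio against NX of all 5 glycoprotein, αIIb and TLT-1 genes to values above 0, with 0.34 for Treml1, 0.67 for Gp5, 1.29 for Gp6, 0.52 for Gp9 and 0.64 for Itga2b. After it the REC ratios against NX of Treml1 (0.57) and Gp6 (0.54) overlapped with NX as well, and CH and REC overlapped for both. The order was reversed on every array for Gp6 in CH against NX (1.29) and for Itga2b in CH against REC (0.73), with CH the higher group.

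**Figure D3:**
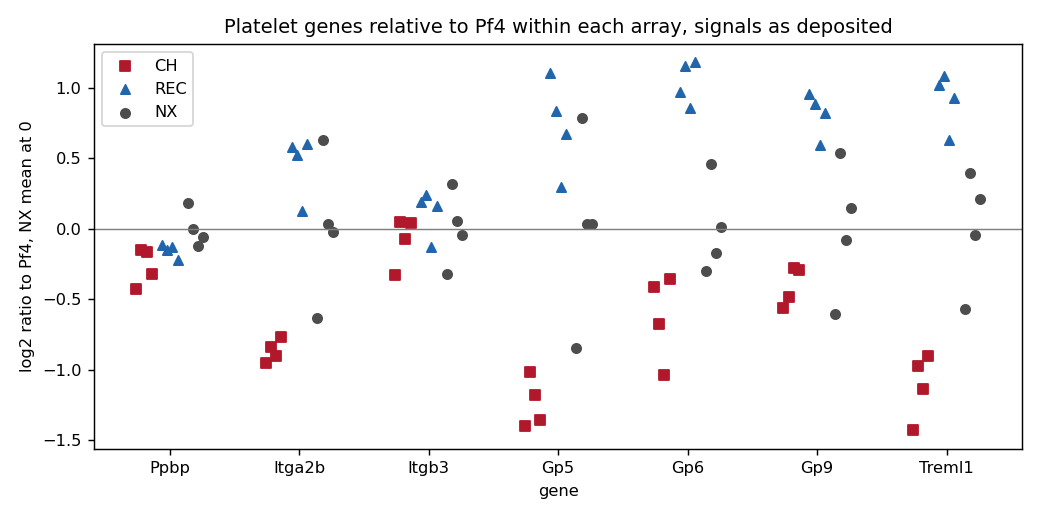
Log2 ratio of each gene to Pf4 on the same array, with the NX mean at 0 and 1 point per array (CH squares, REC triangles, NX circles), from the signals as deposited. Treml1 and Gp6 show CH below NX and REC above NX with no overlap. After quantile normalization (not drawn) Treml1 in CH against NX reads 0.34 and REC against NX 0.57, both with overlap. Gp6 in CH against NX then reads 1.29, with all CH arrays above all NX arrays.

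Within a group, the genes deviated together from mouse to mouse. After each gene was centred on its group mean, all 28 pairs of the 8 genes had a positive Pearson r over the 12 arrays, with a median of 0.85 and a range of 0.51 to 0.98. The closest pair was Itgb3 and Treml1 (0.98) and the least close was Ppbp and Gp5 (0.51), while Pf4 and Ppbp stood at 0.94. Without NX replicate 1 the median was 0.90 and the range 0.72 to 0.99. Markers of other cells, treated the same way, had medians of 0.93 for B cells, 0.75 for T cells and 0.59 for neutrophils. The medians were 0.37 for monocytes, 0.33 for red cells, 0.19 for endothelium, 0.13 for natural killer cells and -0.089 for blood progenitors. The other platelet and megakaryocyte genes, in the lists described below, had lower medians than the 8 genes. These were 0.63 for surface receptors (135 of 153 pairs positive) and 0.45 for granule proteins (91 of 136). For the signalling list the median was 0.44 (483 of 595), and for transcription factors 0.00084 (46 of 91). The arrays share their amplification and scaling, so these values are descriptions.

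All 8 genes were above their group mean in CH 4, REC 1 and NX 4, by an average of 0.60, 0.45 and 0.57 on the log2 scale, and all 8 were below it in CH 3, REC 2, REC 3 and NX 3. In NX 1 only 1 of the 8 genes was above its group mean, Ppbp by 0.12. The average deviation there was -0.45, and that of Gp5 was -0.91. The hybridization controls deviated on these arrays by 0.35 in CH 4, 0.30 in REC 1, 0.38 in NX 4 and 0.38 in NX 1, and the 2405 probe sets with a mean signal over 1000 by 0.27, 0.19, 0.17 and -0.22. The part of these array values in the shared movement of the platelet genes was not tested.

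**Figure D4:**
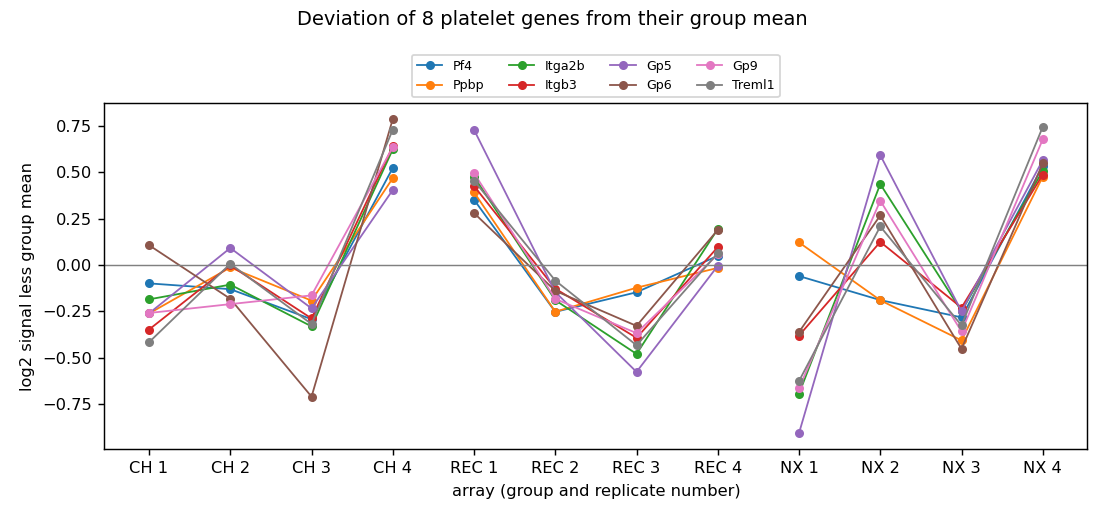
Log2 signal of 8 platelet genes less the gene's group mean, for the 12 arrays, with lines joining the arrays of a group only to guide the eye. The genes lie together at 0.40 to 0.79 in CH 4 and at 0.48 to 0.75 in NX 4, and spread between -0.91 and 0.12 in NX 1.

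The search covered the 11608 probe sets of other genes that name a single gene and had a mean signal of at least 100. The 5 genes whose deviations followed the mean of the platelet genes most closely over the 12 arrays were Tmem40 (r = 0.987), Ilk (0.986), Creg1 (0.985), Tpm4 (0.984) and Myl9 (0.981). Ilk encodes integrin-linked kinase, Tpm4 a tropomyosin and Myl9 a myosin light chain. Their changes between groups were unlike each other. Creg1 had a signal of 28607 ± 7584 in CH, 4690 ± 1169 in REC and 5466 ± 1430 in NX (SD, n = 4 arrays each) and rose in CH against NX (log2 change 2.39, limma adjusted p = 2.96e-05). Tmem40 and Ilk were called lower in CH than in REC, by -1.19 and -1.03, and Tpm4 and Myl9 were called in no comparison.

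The other platelet and megakaryocyte genes, were taken in 4 lists apart from the members. With 1 probe set per gene, 19.5% of all 18194 genes were called lower and 9.08% higher in CH against NX, 1.79% and 2.50% in REC against NX, and 23.3% and 12.3% in CH against REC. Brighter genes moved more: of the 8767 genes with a mean signal of at least 100 in some group, 38.1% were called lower and 13.1% higher in CH against NX, with a median log2 change of -0.72. Of the 35 measured genes (38 listed) for signalling, the cytoskeleton and granule formation, 18 were called lower and 0 higher in CH against NX, with a median log2 change of -1.03. Of the 35, 33 were among the brighter genes, so the median of -0.72 and the 38.1% of that background stand nearer to the list than those of all genes (0.054 and 19.5%). Cavin2, which shapes caveolae and is abundant in platelets, had signals of 377, 487, 677 and 975 in CH, 4792, 2812, 2383 and 4102 in REC, and 2522, 3610, 2589 and 5213 in NX. All CH arrays lay below all others, and Cavin2 changed by -2.46 in CH against NX (SE 0.34, limma adjusted p = 0.000139). Gucy1a1 and Gucy1b1, the subunits of the nitric oxide receptor guanylate cyclase, changed by -1.94 and -1.90, the fusion protein gene Stx11 by -1.81 and the kinase gene Syk, also expressed by B cells, by -1.80. In REC against NX this list had 1 gene called, the granule SNARE gene Vamp8, which rose by 1.24 (adjusted p = 0.0168).

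Of 18 other surface receptors (19 listed), 6 were called lower and 1 higher in CH against NX, with a median of -0.79. Of the 18, 16 were among the brighter genes, of which 38.1% were called lower and 13.1% higher, with a median of -0.72. The list is not set apart from that background by these counts. P2ry12, the ADP receptor that clopidogrel blocks, had signals of 319, 355, 372 and 567 in CH, 1856, 924, 875 and 1578 in REC, and 1056, 1609, 1001 and 2712 in NX. The CH arrays were again below every other array, and P2ry12 changed by -1.86 in CH against NX (SE 0.35, limma adjusted p = 0.00126). The other receptors that fell most in CH against NX were Esam, an adhesion molecule of platelets and endothelium (-1.64), the tetraspanin gene Cd9 (-1.42) and P2ry1, the other ADP receptor (-1.20). P2ry1 was dim, with a mean signal of 13.5 in CH and 51.4 in NX, and its CH and NX arrays overlapped. The receptor called higher was Cd36, a thrombospondin receptor that young red cells also carry, which rose by 3.73 in CH against NX. Cd36 fell by 1.43 in REC against NX, a call lost on median centring (-1.27) and on the hybridization controls (-0.62). Of the 9 red cell markers, 8 were called higher in CH against NX (9.08% of all genes) and 6 lower in REC against NX (1.79%). After quantile normalization these counts were 5 and 5. On the hybridization controls 7 were higher and 1 lower in CH against NX, and 3 were lower in REC against NX.

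Among 17 granule proteins (18 listed), 3 were called lower (17.6%) and 0 higher in CH against NX, with a median of -0.55. That share was under the 19.5% of all genes called lower. Of the 17, 14 were among the brighter genes, of which 38.1% were called lower, with a median of -0.72. The 3 were Angpt1, a growth factor for vessels (-1.85), the lysosomal protease gene Ctsa (-1.62) and Mmrn1, the factor V carrier multimerin (-1.49). None was called in REC against NX. In CH against REC 5 were called lower and 1 higher, beside 23.3% and 12.3% of all genes. The higher one was the adhesive protein gene Thbs1 at 1.36. It read 0.94 and was not called after quantile normalization, and its sign turned on the hybridization controls (-1.06). Of 14 transcription factors (15 listed), 4 were called higher and 2 lower in CH against NX, with a median of -0.42. All 14 were among the brighter genes, of which 13.1% were called higher and 38.1% lower. The 3 that rose most, Zfpm1 (2.73), Gata1 (2.49) and Lmo2 (1.78), also act in red cell precursors. On the hybridization controls Gata1 read 0.88 and Lmo2 0.16, and after quantile normalization Lmo2 read 0.56, none of them called. Those that fell were Mrtfa (-1.73) and Fli1 (-1.55), an ETS factor that lymphocytes express as well. In CH against NX, 6 of 7 B cell markers and 8 of 9 T cell markers were called lower. After quantile normalization 6 of 7 and 5 of 9 were. Of all genes 19.5% were called lower as deposited, and 38.1% of the brighter genes. Lat was counted both among the T cell markers and in the signalling list. How much of these list values came from platelets rather than from such cells was not tested.

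**Figure D5:**
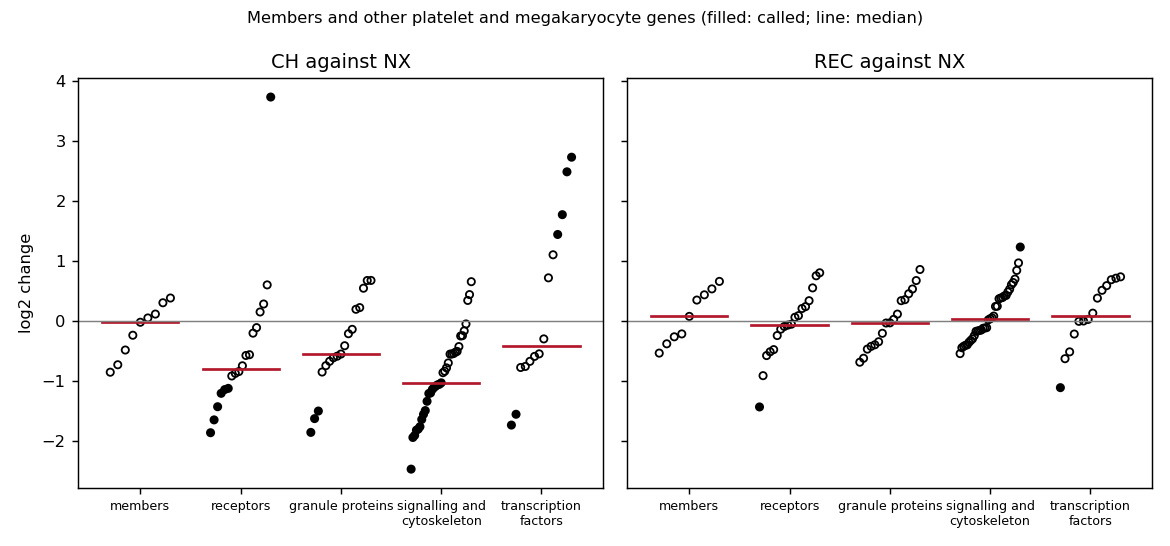
Log2 change of the 9 member probe sets and of the genes of 4 other platelet and megakaryocyte lists in CH against NX and REC against NX, 1 point per probe set or gene, filled where called, with the median as a red line. In CH against NX the members' median is -0.016 and that of the signalling list -1.03, and in REC against NX the medians lie between -0.056 and 0.083.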

How the data were processed

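Whole blood RNA of 4 CH, 4 REC and 4 NX mice was hybridized to 12 Affymetrix Mouse 430 2.0 arrays. The deposited intensity values are linear signals with a trimmed mean of 150.0 per array. Which software the authors summarised them with was not given in the sources used here; their Methods name GC-RMA, whose log2 scale these values are not on. The labels and the Methods name different RNA kits and amplification steps. Groups follow the titles; 1 field of the labels has the CH mice as normoxic, against their titles, and was set aside.

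Log2(signal + 16) was fitted with limma 3.58.1 in R 4.3.3 to all 12 arrays, a mean per group (9 residual degrees of freedom), and adjusted over 45101 probe sets. The script was tested on simulated data. For each gene of a list, the probe set with the highest mean log2 signal stood for it. Named genes were all members, up to 5 called genes per list and comparison, and the 5 closest in deviation. Members and lists were chosen with earlier results of these data, and the study's supplementary tables, known. Alternatives were other scalings, pseudocount, filters, thresholds, priors, weights and leaving out arrays. Promoters are RefSeq sequences (GRCm38.p6). No batch, scan date or detection call was used, and the number of arrays limits the precision. Figures used Python 3.11.15 and matplotlib 3.10.9.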

Additional observations from a re-analysis of the deposited data

Results flagged for a closer look

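Of 27 sets of 4 arrays examined, 9 probe sets in each of 3 groups, 1 held an array far from the others. Gp9 in CH had signals of 2175, 2249 and 2325 in 3 arrays and 4058 in CH replicate 4, so that the gap between the highest array and its neighbour was 0.894 of the whole range, above the 95% critical value of Dixon's test. Chance marks about 1 set in 20. CH replicate 4 was above the group mean for all 8 genes, and its hybridization controls deviated from the CH mean by 0.35 on the log2 scale; the part of this in the Gp9 value was not tested.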

How the results depend on the processing

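The numbers of platelet probe sets called were 0 in CH against NX, 0 in REC against NX and 2 in CH against REC, and the same counts came with the replicate number as a block (replicates with the same number were different mice, and the deviations of same-numbered arrays correlated at -0.20 to 0.44 over 12 pairs). After quantile normalization the counts were 2 in CH against NX and 4 in CH against REC, all lower, where 19.0% and 24.9% of all probe sets were called. After scaling on the hybridization controls they were 9, 3 and 9, with those of CH lower and those of REC against NX (Gp6, Gp9 and Treml1) higher. Of all probe sets, 77.5%, 16.4% and 93.9% were called under that scaling. With no fold threshold 4 passed in CH against REC. Leaving out single arrays gave 0 to 1 in CH against NX (1 without NX replicate 1) and 1 to 3 in CH against REC (1 without REC replicate 1). A pseudocount of 1, median centring, the filter on dim probe sets, 8 arrays only, other priors, array weights and averaging the probe sets of each gene left all 3 counts within 1.5 times. The cause of the differences between scalings was not tested.

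Signs turned in 51 cases. After quantile normalization, Pf4, Ppbp, Itgb3 and Gp6 changed by -1.17, -1.31, -0.94 and 0.12 in CH against NX, Pf4 and Itga2b by 0.077 and -0.014 in REC against NX, and Pf4, Ppbp and Itgb3 by -1.24, -1.18 and -0.89 in CH against REC. After scaling on the hybridization controls, Pf4, Ppbp and the bright and dim Itgb3 probe sets changed by -1.22, -1.49, -1.30 and -1.56 in CH against NX, by 0.43, 0.28, 0.55 and 0.60 in REC against NX, and by -1.66, -1.77, -1.85 and -2.16 in CH against REC. Median centring gave -0.037 for Ppbp and -0.10 for the dim Itgb3 probe set in CH against NX, and -0.049 for the dim one in CH against REC. Array weights gave -0.18 for the dim Itgb3 probe set in CH against NX and -0.10 for Itga2b in REC against NX. Without single arrays, the CH changes against NX spanned -0.036 to 0.28 for Ppbp, -0.26 to 0.43 for the dim Itgb3 probe set, -0.49 to 0.0045 for Gp6 and -0.24 to 0.21 for Gp9, and the REC changes against NX spanned -0.15 to 0.25 for Itga2b and -0.53 to 0.013 for the dim Itgb3 probe set. The ratios to Pf4 after quantile normalization, a setting chosen after seeing the data, were 0.64, 0.67, 1.29, 0.52 and 0.34 in CH against NX for Itga2b, Gp5, Gp6, Gp9 and Treml1, -0.090 in REC against NX for Itga2b, and 0.73, 0.43 and 0.75 in CH against REC for Itga2b, Gp5 and Gp6.

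The number called in the other lists moved most on the hybridization controls, with 34 of 35 signalling genes in CH against NX, where 77.5% of all probe sets were called. After quantile normalization 7 of 17 granule proteins were called in CH against NX, against 3 as deposited. The shares of all probe sets were 19.0% and 22.0%. The signal gives no detection call, so the dim Itgb3 probe set limits what can be said of it.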
